A study of Sus scrofa with 12 samples.

Results

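Antisense circRNAs are closed RNA loops that the deposited circRNA table places on the strand opposite to an annotated source gene. They were taken as the table's antisense rows off chromosomes X and Y, which gave 864 of 24177 circRNAs from 632 source genes. A circRNA forms by back-splicing, in which the end of a later segment of a transcript is joined to the start of an earlier one, and the reads that cross this junction are counted. Most known circRNAs consist of exons of a protein-coding gene on its own strand. A loop on the other strand needs a transcript that runs the other way, such as a long non-coding RNA (lncRNA) that overlaps the gene. In liver, the genes of plasma proteins are among the most strongly transcribed.

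The livers came from Hezuo pigs, a small breed of the cold Gansu plateau, and Bama pigs, a miniature breed of southern China. Each breed was kept for 15 days in the cold (-15 ± 2 °C) or at room temperature (23 ± 2 °C), with 3 pigs in each of the 4 groups: Hezuo cold, Hezuo room temperature, Bama cold and Bama room temperature. The labels name no allele, drug, age or sex, and all pigs received a balanced feed. The study set out to find RNAs tied to the cold tolerance of the Hezuo breed.

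Libraries held between 39117 and 75616 back-splice counts and between 20041285 and 30188037 gene counts. Summed hepatocyte markers lay between 22885 and 79031 FPKM, with all 10 genes detected. Y-linked RNA had 1578 to 4199 counts in 8 libraries, and 0 to 3 in all 3 Bama room temperature libraries and Bama cold 2. At room temperature, breed and presence of Y-linked RNA therefore cannot be told apart. Within Bama, cold and presence of Y-linked RNA differ only in Bama cold 2, so they are largely mixed there too. In these bulk samples, fewer cells of a type and less RNA per cell cannot be told apart either. No sequence of a junction is printed, since no genome was used here.

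The strand labels were compared within the table. Of the members, 575 had a source gene that also gave sense circRNAs, and all 575 lay on the strand opposite to those, with 0 on the same strand. This follows from the class labels, so it shows that they are coherent and does not test the strand of the reads. Antisense circles took 474 positions on the minus strand and 390 on the plus strand. None of the 864 shared both ends with a circle of the opposite strand, and 0 did so within 5 bases. An end was shared with another antisense circle by 114 members, and with a same-strand circle of another class by 19. In the RefSeq annotation of Sscrofa11.1, 736 members lay inside their source gene, 61 partly inside and 45 outside it, and 22 had no matched gene.

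Most antisense circles were short, rare and seen in a single pig. Their genomic span had a median of 620.5 bases, a 25th percentile of 285 and a 75th of 2973, and the longest spanned 98451 bases. For all 864, the deposited spliced length equals the genomic span, so the table removes no intron from them. The summed count over 12 libraries had a median of 3, and 610 members (70.6%) were found in 1 library. Together they held 7430 counts, which is 1.19% of all back-splice counts. The 87 members with at least 10 counts held 4882 of them, and the most abundant circle alone held 20.6%. Spans under 1000 bases were found for 517 members with 2470 counts, and 77.6% of these members were seen in 1 library. The 347 longer members held 4960 counts, and 60.2% of these members were seen in 1 library.

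**Figure D1:**
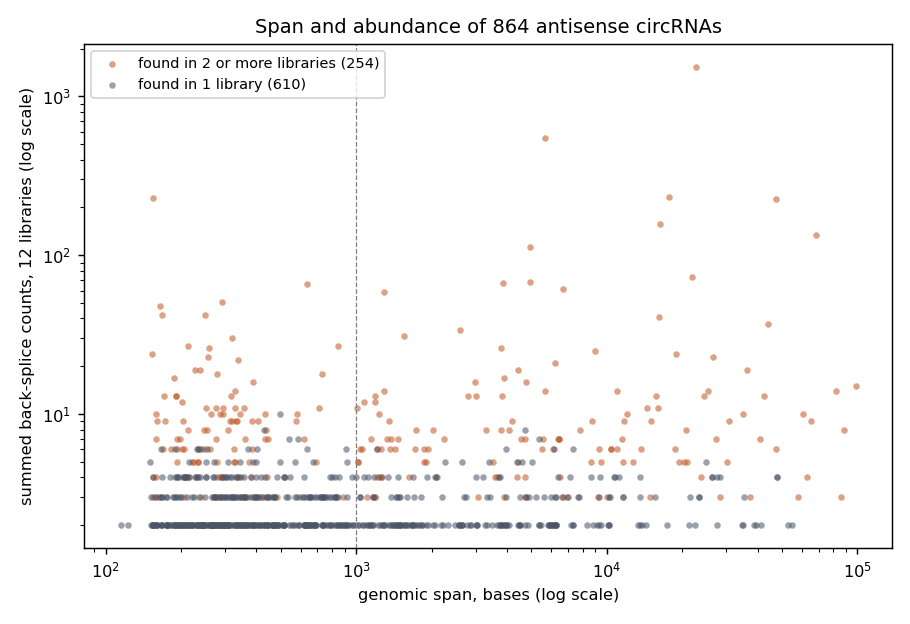
Genomic span in bases (log scale) against the summed back-splice count over 12 libraries (log scale) for the 864 antisense circRNAs, with orange points for the 254 found in 2 or more libraries and grey points for the 610 found in 1. The dashed line marks 1000 bases, and the circles of highest count are mostly to its right.

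Compared library by library with exonic circRNAs, antisense circles had shorter genomic spans and were far more often private to a pig. The median span of the circles detected in a library was 852 ± 229 bases for antisense and 9614 ± 228 bases for exonic ones (SD, n = 12 libraries). Of the circles detected in a library, 35.2% ± 5.67 of the antisense and 3.65% ± 0.64 of the exonic ones were found in no other library. Both differences had the same direction in 12 of 12 libraries, with an exact permutation p of 0.000488, two-sided, which is the smallest that 12 libraries can give, and 0.000651 after adjustment over 4 measures. Among circles with at least 10 counts in all, the difference in the share found in 1 library was 0.14 percentage points, with an exact permutation p of 1. The median count per detected circle was 2.00 for antisense and 2.17 for exonic circles, an exact permutation p of 0.5. Over the whole table, 70.6% of antisense, 65.6% of intronic, 43.1% of intergenic and 18.8% of exonic circles were found in 1 library. The genomic span of exonic circles includes introns, and their median deposited spliced length was 567 bases, beside 620.5 for antisense circles. Median spans of intronic and single-exon circles were 882 and 366 bases.

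Source genes of antisense circles were strongly expressed. The median source gene of the detected circles had a log2(FPKM + 1) of 6.26 ± 0.85 for antisense and 3.49 ± 0.14 for exonic circles (SD, n = 12 libraries), higher for antisense in 12 of 12, with an exact permutation p of 0.000488. Of the 632 source genes, 257 (40.7%) exceeded the 90th percentile of mean FPKM among genes with any signal, against 15.5% of 4853 source genes of exonic circles. Members with at least 30 counts had a median source gene level of 352 FPKM, those with 10 to 29 counts of 827 FPKM, and those under 10 counts of 27.9 FPKM.

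**Figure D2:**
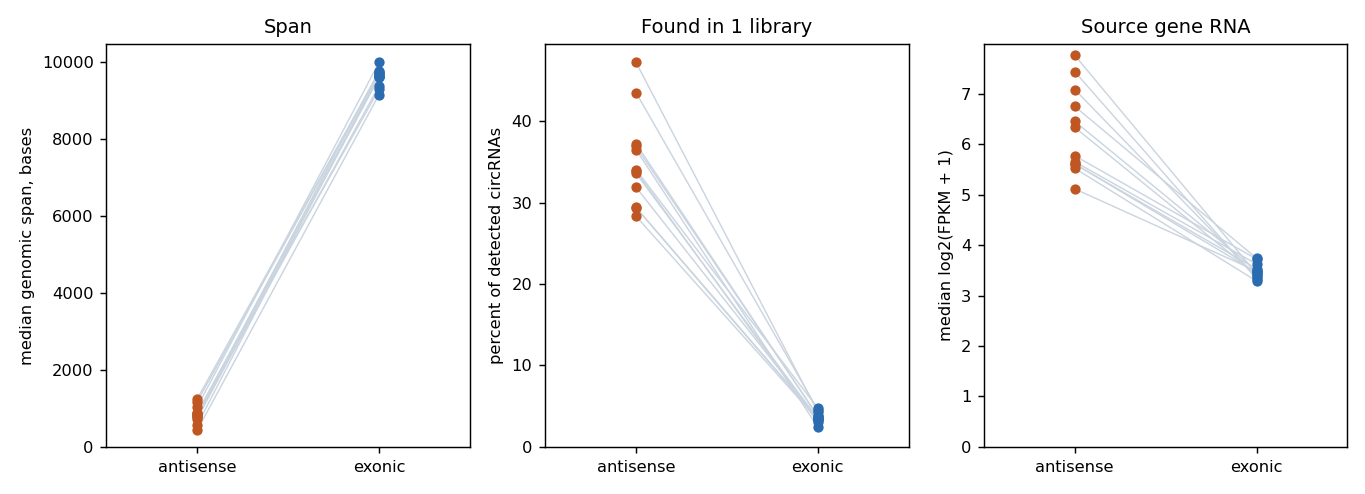
Each point is a library and each line joins the antisense (orange) and exonic (blue) value of that library. The panels give the median genomic span in bases, the percent of detected circles found in no other library, and the median log2(FPKM + 1) of the source genes, and the classes do not overlap in any of the 3.

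Most source genes had 1 antisense circle (549 of 632), and 16 genes with at least 5 circles held 158 members. The leading genes encode secreted plasma proteins of the hepatocyte. ALB, the gene of albumin, had 25 antisense circles with 216 counts, beside 35 sense circles with 1879 counts. APOB, the structural protein of very low density lipoprotein, had 19 with 101 counts. C3, the central complement component, had 18 with 124 counts, and HP, the haemoglobin-binding haptoglobin, had 15 with 160 counts. FGA, the alpha chain of fibrinogen, had 13 with 56 counts. For APOB and HP, antisense counts exceeded the sense counts of 48 and 89, which was so for 30 of the 392 source genes with sense circles. The 90 circles of these 5 genes had a median span of 391.5 bases, and 39 of them were found in 1 library.

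The mitochondrial genome gave 18 members with 402 counts, all on the minus strand and 155 to 511 bases long. COX3 and COX1, which encode cytochrome c oxidase subunits of the respiratory chain, held 8 and 6 of them. Neither gene had a sense circle in the table. The COX3 circle (chrMT:10170-10324, minus strand) was seen in every library, with 34, 11 and 19 counts in Hezuo cold, 26, 23 and 10 in Hezuo room temperature, 17, 12 and 13 in Bama cold, and 10, 42 and 12 in Bama room temperature. The groups overlapped, and the breeds differed by 0.42 ± 0.32 on the log2 scale (SE, edgeR adjusted p 0.663). Mitochondrial DNA is known to be transcribed from both strands along nearly its whole length.

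The abundant antisense circles had longer spans and more often overlapped a lncRNA gene. Of the 23 members with at least 30 counts, 9 (39.1%) overlapped a RefSeq lncRNA gene, as did 15 of 64 with 10 to 29 counts (23.4%) and 76 of 777 below that (9.78%). Median spans of these tiers were 4953, 924.5 and 585 bases. Of members under 1000 bases, 29 of 517 overlapped such a gene, and of longer ones 71 of 347. The part of span in the overlap was not tested. In 19 members, the ends lay in 2 different RefSeq genes with no gene common to both. These 19 were 2.20% of antisense circles but held 1945 counts, 26.2% of the class. Of these counts, 1533 came from the MYL12A circle described below. Among 18670 exonic circles off X and Y, 21 (0.112%) had such ends, with 0.170% of the counts. Exonic circles are assigned to exons of a source gene, which by itself limits such ends, and other classes were not compared. The RefSeq table used gives no strand, so it does not show which of these genes runs with the circle.

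Several of the 19, chosen after their values were seen, join neighbouring relatives of a gene family. The AKR1C1 circle starts in AKR1CL1 and ends in AKR1C1, which encode aldo-keto reductases. The MX2 circle starts in MX2 and ends in MX1, interferon-induced GTPases, the CYP3A39 circle runs between CYP3A46 and CYP3A29, drug-metabolising cytochromes P450, and an FGA circle runs between FGG and FGA. The SERPINA1 circle starts in LOC100621494 and ends in SERPINA1, whose symbol the files describe as alpha-1-antiproteinase-like. Genes of a family can be similar in sequence, and reads can then fit more than 1 copy. How alike these pairs are was not measured, and how the circRNA caller treated such reads is not given in the sources used here. The counts of these circles are therefore uncertain.

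The most abundant antisense circle also has its ends in 2 RefSeq genes. It carries the source gene symbol MYL12A (the files describe the gene as myosin regulatory light chain 12B), which encodes the light chain that switches on non-muscle myosin. The circle (chr6:103391833-103414589, plus strand) starts in RefSeq gene MRLC2 and ends in LOC733637. How alike these 2 genes are was not measured either, so the count of this circle is uncertain too. With 1533 counts it ranked 20 among all circRNAs. It had 0, 1 and 119 counts in Hezuo cold, 0, 72 and 125 in Hezuo room temperature, 239, 192 and 138 in Bama cold, and 226, 162 and 259 in Bama room temperature. All 6 Bama livers had it, taking 24.5% to 41.7% of their antisense counts, while 3 of 6 Hezuo livers had at most 1 count and the other 3 had 14.2% to 19.1%. Its source gene showed no such split, with 78.1 to 104.7 FPKM over the 6 Hezuo livers and 82.4 to 132.3 FPKM over the 6 Bama livers. The circle differed between the breeds by -1.79 ± 1.11 on the log2 scale, with an edgeR adjusted p of 0.617, so the difference did not pass the threshold. The antisense circles most like it over 12 libraries in log2 CPM (counts scaled to 1000000 per library) were those of AKR1C1 (Pearson r 0.78), SELENOP (0.72, with at most 4 counts in a library) and POSTN (0.66), among 71 compared.

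Metallothioneins are small cysteine-rich proteins that bind zinc and copper and are induced by metals and stress hormones in liver. The circle labelled MT1A (chr6:18661906-18667566, minus strand) starts in RefSeq LOC102166944. The files describe its source gene as metallothionein-1E-like, and since metallothionein genes lie side by side and are similar in sequence, its assignment among them is uncertain. It had 86, 89 and 77 counts in Hezuo cold, 71, 138 and 83 in Hezuo room temperature, and 0 in all 6 Bama libraries. Hezuo livers held 544 counts in all, at least 226-fold higher in CPM than the 3 counts over the 6 Bama libraries that a count of 0 allows. The breeds did not overlap, and the edgeR adjusted p was 9.70e-89 averaged over temperatures. The Bama cold libraries 1 and 3, which hold Y-linked RNA as Hezuo does, also had 0 counts, and in the cold the adjusted p with a term for Y-linked RNA was 2.55e-27. With that term the adjusted p was 0.9998 averaged and 0.9999 at room temperature, where the term and the breed are the same contrast. Cold against room temperature in Hezuo gave a difference of -0.12 ± 0.31 on the log2 scale (adjusted p 0.993).

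A second MT1A circle had the opposite pattern. It spans chr6:18657197-18673289 on the minus strand, from LOC100739663 to RefSeq MT1A. It had 0 counts in all 6 Hezuo libraries, 8, 0 and 7 in Bama cold, and 0, 26 and 0 in Bama room temperature. In CPM it was at least 10.96-fold lower in Hezuo, measured against 3 counts over the 6 libraries, with an edgeR adjusted p of 2.26e-04. This call rests on 3 libraries and did not hold with DESeq2 (adjusted p 0.586) or with a filter of at least 5 counts in 3 libraries (adjusted p 0.334). Without Bama cold 1, Bama cold 3 or Bama room temperature 2 the circle fails the filter, and at room temperature (adjusted p 0.0420) the call was lost without any of the 3 Hezuo libraries (adjusted p up to 0.250). It was also lost there with scaling by the gene table (adjusted p 0.0672), the term for Y-linked RNA (0.0855), no filter (0.123), the replicate block (0.407) and the 5-count filter (0.704). A further circle, at chr6:18661936-18667597 on the minus strand, is shifted by about 30 bases from the first. It had 0, 0 and 6 counts in Hezuo cold and 0 in Hezuo room temperature, 0, 4 and 0 in Bama cold, and 1, 3 and 0 in Bama room temperature. It was thus present in both breeds.

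Linear MT1A RNA was also higher in Hezuo, but by far less. It averaged 7615 ± 851 FPKM in Hezuo cold and 8385 ± 894 in Hezuo room temperature, against 5021 ± 1626 in Bama cold and 4763 ± 631 in Bama room temperature (SD, n = 3 each). The log2 fold change between the breeds was 1.12 ± 0.14, with an edgeR adjusted p of 0.00249.

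The next circle by count lies in the class I region of the pig major histocompatibility complex, whose proteins present peptides to cytotoxic T cells. It carries the source gene LOC100513601, described as a class I alpha chain, and spans chr7:22938931-22956649 on the minus strand, with RefSeq SLA-2 at both ends and SLA-3 at its start. It had 138 counts in Hezuo cold 2, 96 in Hezuo room temperature 3, and 0 in the other 10 libraries. Class I genes are similar in sequence, so its count is uncertain. Found in 2 libraries, it did not enter the test. Its source gene was present throughout, at 528 to 1259 FPKM over the 6 Hezuo livers and 701 to 1890 FPKM over the 6 Bama livers, and gave 7 sense circles with 1677 counts.

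ST8SIA3 encodes a sialyltransferase best known from brain, and its linear RNA was low, at 5.91 ± 2.45 FPKM in Hezuo cold, 7.15 ± 1.94 in Hezuo room temperature, 8.09 ± 2.61 in Bama cold and 13.97 ± 3.68 in Bama room temperature. Its 5 antisense circles held 420 counts, lie in the lncRNA gene LOC102164252, and each share an end with an intergenic circle of the same strand. On chromosome 1, 4 of the 5 share the end 106732919. The largest by count (chr1:106685578-106732919, minus strand) had 10, 10 and 23 counts in Hezuo cold, 36, 24 and 16 in Hezuo room temperature, 7, 25 and 12 in Bama cold, and 7, 14 and 43 in Bama room temperature. It was seen in all 12 libraries, the groups overlapped, and the breeds differed by 0.39 ± 0.33 on the log2 scale (edgeR adjusted p 0.703). The next (chr1:106664464-106732919, minus strand), with 135 counts, was missing in 1 library, Bama cold 3.

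POSTN encodes periostin, a matrix protein of activated fibroblasts and stellate cells. Its antisense circle (chr11:13246347-13262673, plus strand) starts in POSTN and ends in the lncRNA gene LOC102166397. It had 7, 1 and 10 counts in Hezuo cold, 2, 3 and 5 in Hezuo room temperature, 14, 25 and 9 in Bama cold, and 34, 7 and 41 in Bama room temperature. This was 127 ± 89.4 CPM in Hezuo cold and 70.4 ± 33.8 in Hezuo room temperature, against 326 ± 149 in Bama cold and 390 ± 227 in Bama room temperature (SD, n = 3 each). It was lower in Hezuo by -1.93 ± 0.43 on the log2 scale (edgeR adjusted p 0.00135), and at room temperature by -2.53 ± 0.62 (adjusted p 0.0143). The linear POSTN RNA went the other way, at 1.28 ± 0.34 on the log2 scale (adjusted p 0.0365), with 45.2 to 129.9 FPKM over the 6 Hezuo livers and 12.1 to 60.0 FPKM over the 6 Bama livers. The averaged circle call was kept without any single library (adjusted p 1.88e-04 to 0.0195) and lost with a term for Y-linked RNA (adjusted p 0.749). The call at room temperature was lost with DESeq2 (adjusted p 0.124), no filter (0.0505) and the term for Y-linked RNA (0.923). It was also lost without any of 4 libraries, Hezuo room temperature 1 or 2 or Bama room temperature 1 or 3 (adjusted p up to 0.273). Summed FPKM of 8 stellate cell markers was 156 to 254 in Hezuo cold, 259 to 437 in Hezuo room temperature, 157 to 276 in Bama cold and 397 to 812 in Bama room temperature, and its part in the result was not tested.

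The source gene symbol FKBP7, a peptidyl-prolyl isomerase of the endoplasmic reticulum, marks 3 circles with 202 counts that lie outside FKBP7 in RefSeq and overlap the lncRNA gene LOC110257116. They share the end 84225453 on chromosome 15. The start of the largest (chr15:84220498-84225453, plus strand) is 3 bases from that of the second. The first had 9, 9 and 5 counts in Hezuo cold, 8, 2 and 9 in Hezuo room temperature, 7, 20 and 7 in Bama cold, and 16, 6 and 15 in Bama room temperature. The groups overlapped, and the breeds differed by -0.47 ± 0.45 on the log2 scale (edgeR adjusted p 0.751). FKBP7 RNA itself was low, at 1.32 to 4.28 FPKM over the 12 libraries.

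The AKR1C1 circle (chr10:65570668-65592629, minus strand) had 3, 1 and 3 counts in Hezuo cold, 0, 4 and 8 in Hezuo room temperature, 12, 7 and 11 in Bama cold, and 4, 7 and 13 in Bama room temperature. Every Bama cold library exceeded every Hezuo cold library, but the averaged difference of -1.28 ± 0.58 on the log2 scale had an edgeR adjusted p of 0.370. The most abundant ALB circle (chr8:69643474-69647314, minus strand) had 8, 1 and 8 counts in Hezuo cold, 16, 0 and 15 in Hezuo room temperature, 1, 2 and 2 in Bama cold, and 4, 5 and 5 in Bama room temperature. Its difference of 1.63 ± 0.61 between the breeds had an adjusted p of 0.210, and the Hezuo libraries spread from 0 to 16. The SARM1 circle (chr12:44672079-44672715, minus strand), from the gene of an NAD-cleaving enzyme of axon degeneration, had 1 to 12 counts in all 12 libraries with no called difference.

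**Figure D3:**
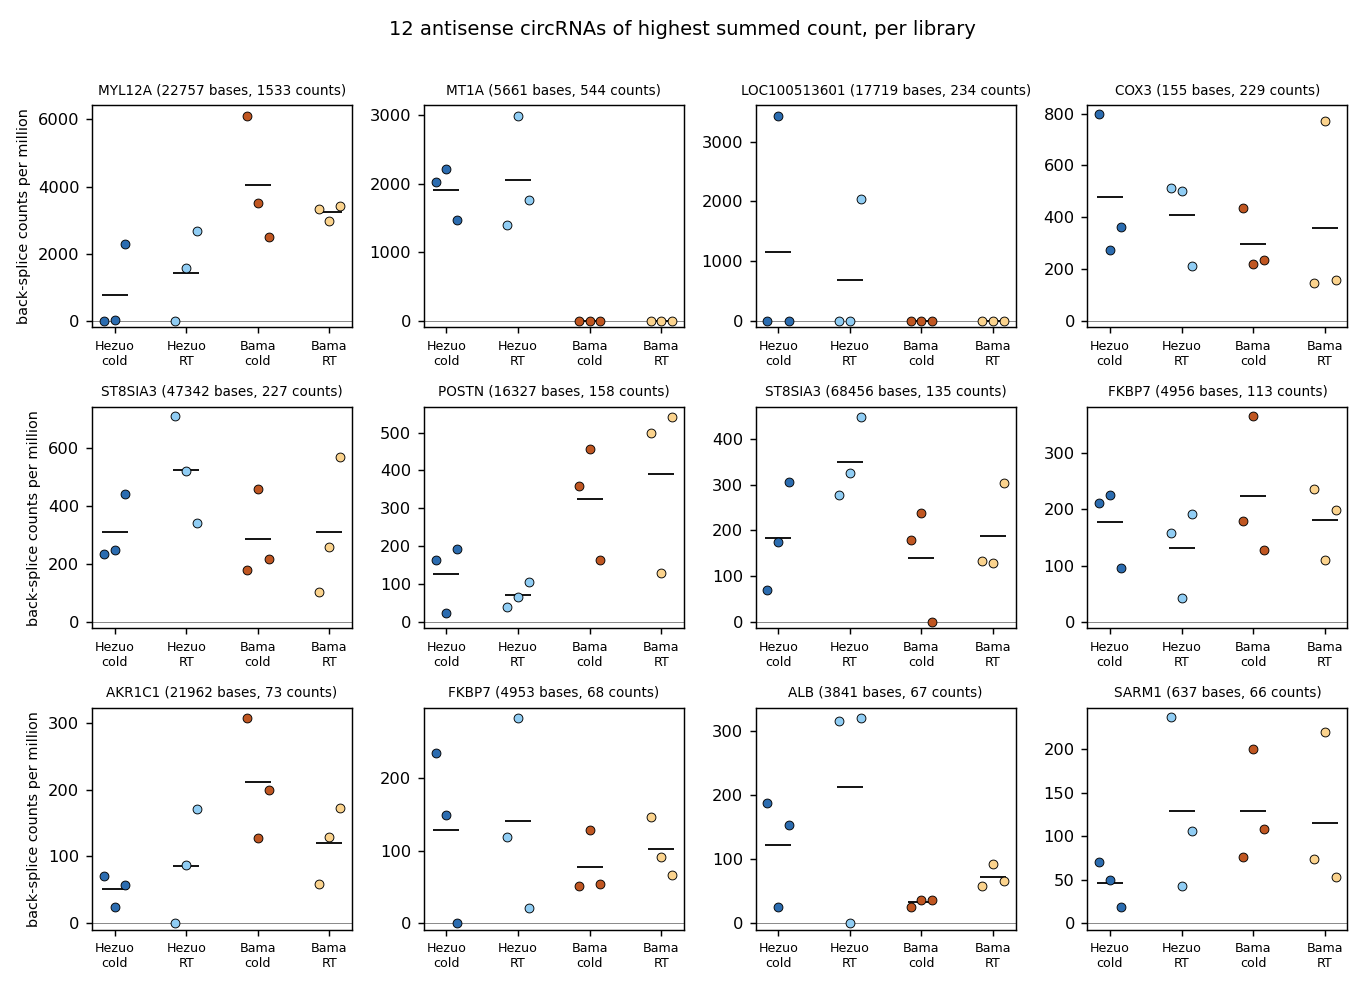
Back-splice CPM in each library for the 12 antisense circRNAs of highest summed count, by group, with a point for each pig and a bar at the mean of 3. The MT1A circle is at 0 in all Bama livers, the MYL12A circle is near 0 in 3 Hezuo livers, and the LOC100513601 circle is present in 2 Hezuo livers.

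An uneven spread over pigs was common among abundant antisense circles. Of the 8 members with at least 80 counts and at least 5 expected in every library, 4 were absent from at least 1 library, against 79 of 1103 exonic circles (7.16%), 4 of 52 of a single exon (7.69%), 22 of 75 that mix exon and intron (29.3%), 5 of 23 intergenic ones (21.7%) and 0 of 7 intronic ones. Of the 87 members with at least 10 counts, 4 were found in Hezuo alone and 6 in Bama alone, together 11.5%, against 1.71% of 8417 exonic circles. In at least 3 libraries of a single breed were 9.20% of these antisense and 1.37% of these exonic circles, and other classes were not compared on this measure. The other 6 were circles of UROC1, LPIN2, FH, UNKL, ATP6 and CYP3A39 with 10 to 17 counts each, named after their values were seen.

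In the fits across all circRNAs, 72 of the 864 members passed the filter and 792 did not. Between the breeds, averaged over temperatures, 3 of the 72 were called where 1.28% of all circRNAs tested were, with 1 higher in Hezuo (0.775% of all) and 2 lower (0.509% of all). These 3 were the first and second MT1A circle and the POSTN circle. At room temperature the comparison called 3 members where 0.454% of all were called, with 1 higher (0.277% of all) and 2 lower (0.177% of all). In the cold it called 1, the first MT1A circle, which was higher, where 0.421% of all were called and 0.21% called higher. DESeq2 called 2 members averaged, 1 in the cold and 1 at room temperature. A term for Y-linked RNA left 1 call averaged, 1 in the cold and 0 at room temperature, and the averaged call was the second MT1A circle. Libraries of the 2 breeds did not overlap at room temperature for 12 members, where 12.3% of all circRNAs had no overlap, and in the cold for 10, where 11% had none. The median log2 fold change of the 72 was 0.08, and that of all circRNAs tested was -0.07.

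Cold moved no antisense circle past the threshold in edgeR. In Hezuo 0 of 72 were called where 0.0886% of all were, with 6 at an unadjusted p under 0.05, which 5.79% of all had. In Bama 0 were called where 0.155% of all were, with 8 at an unadjusted p under 0.05, against 6.53% of all. Averaged over breeds the count was 0, where 0.199% of all were called, with 5 unadjusted, against 7.86% of all. The response to cold differed between Hezuo and Bama for 0, where 0.0886% of all were called, with 6 unadjusted, against 5.67% of all. DESeq2 called 0 in each of these 4 comparisons.

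The circles of smallest p in these comparisons carried few counts. In Hezuo the SERPINA1 circle (chr7:115587421-115606385, plus strand) had 3, 7 and 5 counts in the cold and 0, 0 and 1 at room temperature, a difference of 3.62 ± 1.53 on the log2 scale with an edgeR adjusted p of 0.850. HNRNPK, an RNA-binding protein, had a circle with 2, 4 and 0 counts in Hezuo cold and 0 in Hezuo room temperature, and PLEKHA2 had a circle with 0 counts in Hezuo cold and 7, 0 and 0 in Hezuo room temperature. In Bama a circle of AHSG, the secreted glycoprotein fetuin-A, had 0 counts in each cold library and 4, 5 and 4 at room temperature, yet its adjusted p was 0.684. A circle of LOC100515741, described as UDP-glucuronosyltransferase 2B31, had 0, 4 and 4 counts in Bama cold and 0 in Bama room temperature. Averaged over breeds, the AHSG circle, the circle of MX2 and a circle of HNF4A, the master transcription factor of hepatocytes, had the smallest p and were not called. The MX2 circle had 3, 1 and 0 counts in Hezuo cold, 0 in Hezuo room temperature, 1, 5 and 1 in Bama cold, and 2, 0 and 0 in Bama room temperature. The HNF4A circle (chr17:46800006-46808946, minus strand), which overlaps the lncRNA gene LOC102159476, had 1, 5 and 0 counts in Hezuo cold, 2, 6 and 5 in Hezuo room temperature, 0 in Bama cold, and 1, 0 and 5 in Bama room temperature. For the difference in response, the smallest p belonged to the SERPINA1 circle and to circles of TMEM215, whose linear RNA is listed at 0 FPKM in every library, and CYP2E1, with at most 7 counts in a library.

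SLC7A2, the hepatic transporter of cationic amino acids such as arginine, had 6 antisense circles. Of these, 5 span 10123 to 57945 bases: 4 of these start in MTMR7, and 3 of the 5 end in the lncRNA gene LOC110257468. Together these 5 had 0, 1 and 0 counts in Hezuo cold, 0 in Hezuo room temperature, 16, 17 and 14 in Bama cold, and 0, 3 and 1 in Bama room temperature. Of their 52 counts, the 3 Bama cold livers held all but 5. The sixth member, 231 bases inside SLC7A2, did not share this pattern, with 6 counts in Hezuo cold 2 and 0 in the other 11 libraries. The circle at chr17:5127900-5154327 on the minus strand had 10, 7 and 3 counts in Bama cold, and 0, 2 and 1 in Bama room temperature, a difference of 2.99 ± 1.34 on the log2 scale with an edgeR adjusted p of 0.745. Against Hezuo in the cold, where it had 0 counts, its adjusted p was 0.170, and 0.0495 when only the groups compared were fitted. Linear SLC7A2 RNA was 183 to 185 FPKM in Bama cold and 25.3 to 108.9 FPKM in Bama room temperature, with no overlap, and its difference of 1.49 ± 0.49 had an adjusted p of 0.179. This sum over circles was made after their values were seen and has no test.

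Linear RNA of the source genes was tested in the same comparisons. Of 608 source genes tested, 95 were called between the breeds averaged over temperatures, where 12% of all genes were called, with 69 higher (6.1% of all) and 26 lower (5.87% of all) in Hezuo. At room temperature 7 were called, where 1.08% of all genes were, and in the cold 30, where 2.76% were. Cold against room temperature called 2 in Hezuo (0.281% of all genes), 11 in Bama (0.924%) and 34 averaged over breeds (3.89%). The response to cold differed between Hezuo and Bama in 0 source genes, where 0.00739% of all genes were called, with 56 at an unadjusted p under 0.05 (8.02% of all) and 7 by DESeq2. With a term for Y-linked RNA the averaged breed comparison called 0 source genes.

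Among them, GHR, the growth hormone receptor, was higher in Hezuo by 1.33 ± 0.17 on the log2 scale (edgeR adjusted p 0.00277). CIDEB and KCTD2 were higher by 1.13 ± 0.14 and 1.09 ± 0.15, CIDEB being a lipid droplet protein of hepatocytes. ARAP2, a GTPase-activating protein, was lower by -1.53 ± 0.17 (adjusted p 0.00155). At room temperature TRIM52 was lower in Hezuo, by -0.82 ± 0.15, while the metabolic enzymes PGM1 and MCCC2 were higher by 0.70 ± 0.13 and 1.07 ± 0.21. These 3 calls were lost without Hezuo room temperature 1 or 3 or Bama room temperature 1 or 3, and that of MCCC2 or PGM1 also without Hezuo room temperature 2 or a Hezuo cold library (adjusted p up to 0.159). In the cold MPC2, a subunit of the mitochondrial pyruvate carrier, was higher in Hezuo by 0.90 ± 0.13. Each of these genes had 1 or 2 antisense circles.

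In Hezuo the 2 source genes called for cold were ACSL1, which activates long-chain fatty acids, and CIDEC, a lipid droplet protein. ACSL1 had 566, 567 and 1383 FPKM in Hezuo cold and 169, 163 and 146 FPKM in Hezuo room temperature, a rise of 2.36 ± 0.39 on the log2 scale (edgeR adjusted p 0.0409). CIDEC rose by 2.34 ± 0.40 (adjusted p 0.0449). Both calls were lost without any of Hezuo cold 2 or 3, Hezuo room temperature 1, 2 or 3, Bama cold 2 or Bama room temperature 2, and that of CIDEC also without Hezuo cold 1 (adjusted p up to 0.170). In Bama FKBP5, a target of glucocorticoids, rose by 1.83 ± 0.33 and PIK3C2G by 1.29 ± 0.19, while ITIH1 and ITIH2, heavy chains of a plasma protease inhibitor, fell by 1.10 ± 0.16 and 1.24 ± 0.20 on the log2 scale. The ITIH1, ITIH2, FKBP5 and PIK3C2G calls were each lost without Bama room temperature 3, and some also without Bama cold 1 or 3, Bama room temperature 1 or 2 or Hezuo room temperature 3 (adjusted p up to 0.103). Averaged over breeds, FKBP5 rose by 1.46 ± 0.23, and MGST3, a glutathione transferase, fell by 0.94 ± 0.15. With a term for Y-linked RNA, 0 source genes were called for cold in Hezuo, in Bama or averaged over breeds. Neither an ACSL1 nor an FKBP5 antisense circle was abundant enough to test. Summed cell type markers moved with these comparisons. Summed FPKM of 10 hepatocyte markers was 32616 to 65453 in Hezuo cold and 66190 to 79031 in Hezuo room temperature, and 22885 to 50777 in Bama cold and 59771 to 63297 in Bama room temperature, with no overlap within either breed. This sum includes ALB, at 7233 to 57000 FPKM over the libraries, and its members did not all fall. Averaged over breeds, HNF4A was called higher in the cold (log2 0.98) and 3 others lower, where 3.89% of all genes were called. Within Hezuo 0 were called, with a median log2 fold change of -0.12, and within Bama 2 were called lower, with a median of -0.68. Summed FPKM of 9 Kupffer cell markers was 529 to 1093 in Hezuo cold and 317 to 527 in Hezuo room temperature, and 1008 to 1911 in Bama cold and 564 to 964 in Bama room temperature, again with no overlap. Of these 9, edgeR called 0 within Hezuo and 0 within Bama, with median log2 fold changes of 0.68 and 0.75. Averaged over breeds it called VSIG4 alone, which was higher in the cold, where 3.89% of all genes were called. None of these 19 markers was at 0 in all libraries, and their part in the cold results was not tested.

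**Figure D4:**
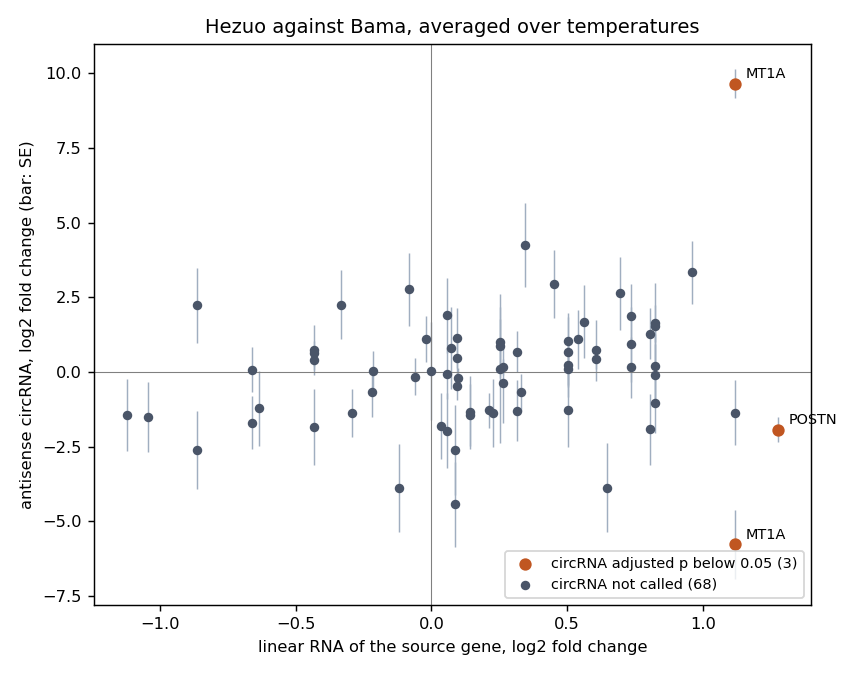
Log2 fold change of the antisense circRNA (vertical, bar 1 SE) against that of the linear RNA of its source gene (horizontal), Hezuo against Bama averaged over temperatures, for 71 tested circles. The 3 called circles are orange: 2 MT1A circles and the POSTN circle have a source gene higher in Hezuo, and 2 of the 3 circles are lower there.

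Signs of circles and source genes were set side by side. Of 71 tested circles with a tested source gene, from 42 genes, 39 had the same sign as their gene between the breeds averaged over temperatures. The count was 40 at room temperature and 41 in the cold. For cold against room temperature it was 34 in Hezuo and 48 in Bama. Circle and gene come from the same libraries, and circles of a gene are not independent, so these are descriptions.

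No test of the amount of antisense circular RNA between groups passed the threshold. Its share of back-splice counts was 1.33% ± 0.27 in Hezuo cold and 1.18% ± 0.19 in Hezuo room temperature, with an exact permutation p of 0.6, two-sided, and 1.20% ± 0.23 in Bama cold and 1.10% ± 0.05 in Bama room temperature, with an exact p of 0.8 (SD, n = 3 each). Hezuo against Bama had an exact p of 0.8 for pigs kept at room temperature and 0.6 for pigs in the cold, and 3 against 3 cannot go below 0.1. Averaged over breeds, cold was 0.127 percentage points above room temperature, with an exact permutation p of 0.33, where 400 arrangements allow 0.005. After thinning each library to 39117 back-splice counts, 147 ± 46.3 antisense circles were detected in Hezuo cold and 110.5 ± 16.3 in Hezuo room temperature, and 128 ± 1.08 in Bama cold and 130 ± 16.7 in Bama room temperature. At room temperature Hezuo minus Bama was -19.9 detected circles, more than the SD of either group, with an exact permutation p of 0.2. Per 1000000 gene counts, antisense counts in the cold differed between Hezuo and Bama by -0.713 (exact permutation p 0.9). Without the MYL12A circle Hezuo was higher there by 6.12, with an exact permutation p of 0.1, the smallest that 3 against 3 can give. This left in the first MT1A circle and the LOC100513601 circle, which were at 0 in all Bama libraries. Without all 3 of these circles, the antisense share overlapped between the breeds in the cold. It was 0.853%, 0.764% and 1.22% in Hezuo cold and 0.854%, 0.778% and 0.770% in Bama cold. All 15 tests of this kind with every circle included had an adjusted p of 1.

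Hezuo cold 3 stood apart in these counts. It had 216 antisense circles, of which 102 were found in no other library, where the other 11 libraries had 30 to 77 such circles. This was not particular to antisense circles. It also had the most single-exon (64, others 21 to 42) and intergenic circles (46, others 15 to 36) found in no other library. Its 353 exonic and 24 intronic ones were fewer than the 456 and 34 of Bama room temperature 3. After thinning it held 200.8 antisense circles, where the others held 95.9 to 147. Without it, the difference between cold and room temperature in Hezuo was 10.2 detected circles in place of 36.9. That between Hezuo and Bama in the cold was -7.16 in place of 19.5, with an exact permutation p of 0.1 without this library and of 1 with it.

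**Figure D5:**
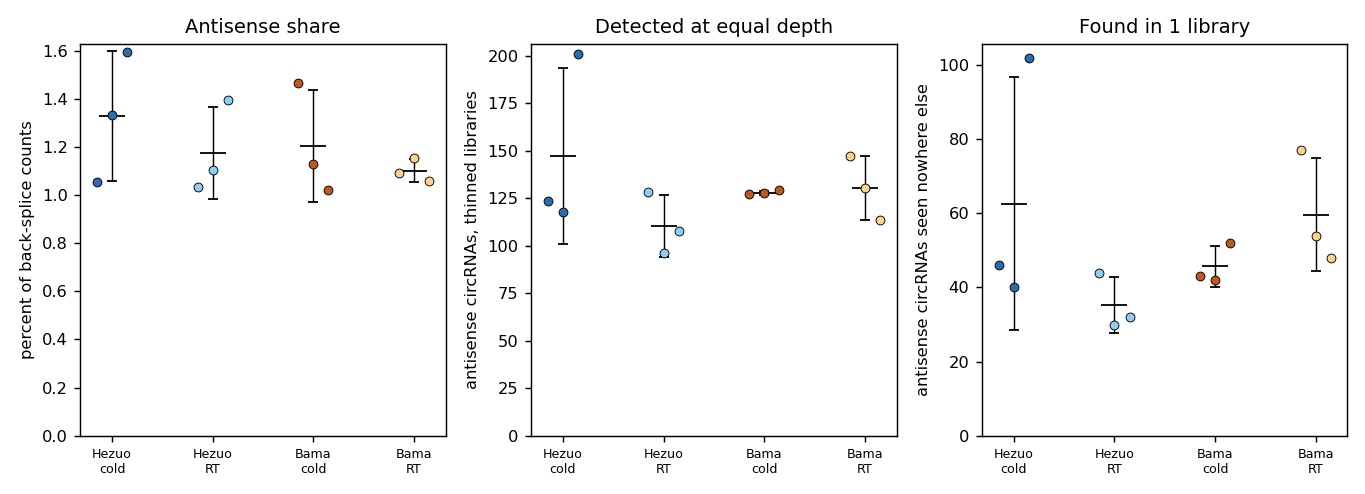
Values of each library by group, with the mean and SD of 3 pigs: the percent of back-splice counts that are antisense, the number of antisense circRNAs detected after thinning to equal depth, and the number found in no other library. Hezuo cold 3 is the highest point in all 3 panels. The groups overlap in the first and second panels. In the third, only Hezuo room temperature (30 to 44) and Bama room temperature (48 to 77) do not overlap.

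Of 16 regulators of circRNA biogenesis, 2 were called between the breeds averaged over temperatures, where 12% of all genes were called, so the list was near the background. Both were lower in Hezuo (5.87% of all genes were): ADAR, which edits double-stranded RNA and hinders back-splicing, and DDX39B, an RNA helicase. The list's median log2 fold change was -0.06, beside 0.00 for all genes tested. Of 13 sensors and editors of double-stranded RNA, the structure that a sense and an antisense transcript can form, 5 were called in that comparison, beside the same 12% of all genes. ADAR, EIF2AK2, OAS2 and IFIH1 were lower in Hezuo, and DICER1, which cuts double-stranded RNA, was higher. Of 16 core splicing genes 1, DHX16, was called, and it was higher, where 6.1% of all genes were. For cold against room temperature, 0 genes of these 3 lists were called by edgeR or by DESeq2 within Hezuo or within Bama, with 0 to 5 of a list at an unadjusted p under 0.05. Beside the breed calls, summed FPKM of 8 lymphocyte markers was 26.9 to 33.8 in Hezuo cold and 23.8 to 36.6 in Hezuo room temperature, against 49.6 to 97.8 in Bama cold and 39.1 to 99.5 in Bama room temperature, with none of the 8 at 0 in all libraries. The part of these cells in the results was not tested.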

How the data were processed

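Liver RNA of 12 pigs was read from 2 tables, with 3 libraries for each breed and temperature. Per the labels' protocols, total RNA was depleted of ribosomal RNA and reverse-transcribed with random primers. The second cDNA strand was digested, so reads keep the strand of their RNA. The submitters' processing notes name fastp. For the aligner, the circRNA caller and the genome build, nothing is given in the sources used here. Counts of reads over each back-splice junction were deposited by the authors without normalization in the circRNA table, beside RPM values that the authors scaled to 1000000 over the circRNAs of each library. Its spliced length was deposited with each circRNA. The gene table holds estimated counts deposited by the authors, rounded here, since 9.48% of nonzero values were fractional, and FPKM values that the authors deposited. Neither RPM nor FPKM entered a count test.

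Antisense circRNAs were the rows of that type off chromosomes X and Y. Coordinates are those of the deposited table, counted from 1, and gene neighbours were read from the RefSeq annotation of Sscrofa11.1. Source genes carry the symbol of the files (557 genes), an Ensembl name (29) or a RefSeq symbol (34), and 12 had none. The members and the gene lists were chosen with earlier results of these data known.

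Counts were tested with edgeR 4.0.16 in R 4.3.3, by the robust quasi-likelihood test with TMM scaling, on all 12 libraries with 4 group means and 8 residual degrees of freedom. CircRNAs needed at least 2 counts in 3 libraries and 10 in all, which left 9032. The filterByExpr function (minimum count 10, minimum total 15) left 13532 genes. The p was adjusted by Benjamini-Hochberg over all features of a comparison, and the threshold was 0.05. Standard errors are the log2 fold change over the square root of F. Exact two-sided permutation tests compared single values per library. Classes were compared by an exact permutation test that flips signs over the 12 libraries. On simulated data for the breed comparison (7639 circRNAs tested), 30.9% of 4-fold and 56.3% of 8-fold changes were recovered, and 0% of calls were false. For genes (13400 tested), 95.0% and 96.9% were recovered, and 5% of calls were false.

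Named circRNAs were the 12 of highest summed count, and in each comparison up to 5 called with the smallest p or, with fewer than 3 called, the 3 of smallest unadjusted p. Named source genes were those of these circles, the 5 with most circles, and up to 4 more called per comparison. Alternatives were other scalings, filters and tests (DESeq2 1.42.0 among them), fits to the compared groups alone, a replicate block, a term for Y-linked RNA, and leaving out each library. Replicate libraries differed beyond counting noise (chi-square per degree of freedom 2.51 to 3.80 over circRNAs), and none were merged. One further gene list is not reported here.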

Additional observations from a re-analysis of the deposited data

How the results depend on the processing

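Over the results that answer a comparison, 436 alternative values fell on the same side as the reported one, 17 were stronger, 58 weaker and 29 reversed. Over single circles and genes, 749 fell on the same side, 103 were weaker, 1 stronger and 0 reversed. Antisense calls at room temperature numbered 1 with DESeq2, 1 without a filter and 0 with a term for Y-linked RNA, and 1 to 3 without a library. Calls between the breeds in the cold were 2 with only the groups compared and 2 without robust fitting. Averaged over temperatures, the term for Y-linked RNA left 1.

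Source gene calls moved more. For cold in Hezuo they were 4 with library size only, 35 with DESeq2, 0 with the replicate block, 0 with the Y-linked term, and 0 to 9 without a library. For cold in Bama they were 48 with DESeq2, 0 with only the groups compared, 3 with the replicate block, 0 with the Y-linked term, and 0 to 16 without a library. For the breeds at room temperature they were 58 with DESeq2, 0 with the replicate block, 0 with the Y-linked term, and 0 to 32 without a library. For the breeds in the cold they were 116 with library size only, 89 with DESeq2, 12 with only the groups compared, 13 with the Y-linked term, and 6 to 36 without a library. The difference in response gave 7 with DESeq2 and 0 to 2 without a library. Cold averaged over breeds gave 58 with library size only, 77 with DESeq2, 0 with the Y-linked term and 11 to 34 without a library. The breeds averaged over temperatures gave 206 with library size only, 0 with the Y-linked term and 39 to 120 without a library. The cause of these shifts was not tested.

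Some library differences changed sign. Of the changed signs with all libraries in, 2 had an exact permutation p of 0.1, the smallest that 3 against 3 can give: 6.40 for cold in Bama and 6.12 for the breeds in the cold. Without Hezuo cold 3, detected circles differed between the breeds in the cold by -7.16, also with an exact permutation p of 0.1. With at least 10 counts per circle, cold in Hezuo gave -0.0231 percentage points in share and -1.73 counts per 1000000 gene counts, cold averaged over breeds gave -0.881 on that scale, and cold in Bama gave 0.133 detected circles. Without circles found in 1 library, the differences on that scale were -1.46 for cold in Hezuo, 0.544 for cold in Bama, 0.0266 for the breeds at room temperature and -0.460 for cold averaged over breeds, and cold in Bama gave 6.40 detected circles. Without the MYL12A circle, the breeds differed by 2.68 on that scale at room temperature and 6.12 in the cold. Without a library, the share differed by -0.0275 to 0.195 for cold in Bama, -0.0337 to 0.146 for the breeds at room temperature and -0.0110 to 0.259 in the cold. On the scale of gene counts it differed by -2.16 to 3.98 for cold in Hezuo, -1.94 to 2.21 for cold in Bama, -3.98 to 1.496 for the breeds in the cold and -1.13 to 1.94 for cold averaged over breeds. Detected circles differed by -10.9 to 5.78 for cold in Bama and by -7.16 to 34.3 for the breeds in the cold.

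Against exonic circles, the mean in place of the median count gave a difference of -1.01 (exact permutation p 0.00439), and the share found in 1 library differed by 0.144 percentage points among circles with at least 10 counts (exact permutation p 1). These 2 alternatives aside, the span, share and source gene differences stayed on the same side.

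Same-numbered libraries did not deviate together on average (mean correlation 0.00131 over circRNAs and 0.00677 over genes, lowest -0.0268 and -0.198). These values give no sign that the numbers pair the pigs, but a mean over all features cannot exclude a pairing. With the replicate block, antisense calls were 2 at room temperature, 1 in the cold and 3 averaged. The mean count, and leaving out mitochondrial circles, circles found in 1 library or a library in the class comparisons, were chosen after seeing the data. A filter on splice dinucleotides was not run, and leaving out circles with an opposite-strand partner removes 0 members. Low counts limit the circle tests: 792 of 864 members were not tested.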
